A study of Mus musculus with 2 samples.

Results

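The genes described are 10 chemokines, Ccl2, Ccl3, Ccl4, Ccl5, Ccl6, Ccl20, Ccl24, Cxcl2, Cxcl13 and Cxcl16, of 31053 genes listed in both count matrices. They were taken as a named list, and each was followed across 6 classes of cell barcode set by raw UMIs (unique molecular identifiers, each counting 1 captured RNA molecule). The study took YFP-positive cells from the liver of Rb family triple knockout mice, in which Rb1, Rbl1 and Rbl2 are floxed and which develop hepatocellular carcinoma. Macroscopic lesions gave 1 library of 256 barcodes, from a number of mice that the labels do not state, and early lesions gave 1 library of 3221 barcodes pooled from 3 mice that the barcodes do not tell apart. Neither group was treated, all cells of both groups came from the triple knockout model, and YFP marks cells whose floxed alleles Cre has recombined. The Cre driver and the age of the animals are not given in the labels.

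Chemokines are small secreted proteins that draw leukocytes along a gradient by binding receptors on their surface. In the liver, resident macrophages (Kupffer cells), infiltrating leukocytes, bile duct cells and hepatocytes can all release them, and each ligand is read by the cells that carry its receptor. Ccl2 attracts monocytes through Ccr2, Ccl20 attracts lymphocytes and dendritic cells through Ccr6, Cxcl2 attracts neutrophils through Cxcr2, Cxcl13 attracts B cells through Cxcr5, and Cxcl16, a membrane-anchored ligand, binds Cxcr6.

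After a minimum of 1000 UMIs per barcode, 241 macroscopic and 2620 early barcodes remained, with medians of 14223 and 2946 UMIs. A barcode was in the hepatocyte gate with Alb at 0.5% or more of its UMIs, in the duct gate with at least 2 UMIs of Krt19 and Krt7, in the Kupffer gate with at least 3 of Clec4f, Cd5l and Marco, in the other macrophage gate with at least 3 of Gpnmb and Mmp12, in the neutrophil gate with S100a8 and S100a9 at 1% or more of its UMIs, and in the T cell gate with at least 2 of Cd3e and Trbc2. The gates held 103 macroscopic and 67 early hepatocyte barcodes, 1 and 101 duct, 4 and 1932 Kupffer, 12 and 296 other macrophage, 1 and 33 neutrophil, and 20 and 76 T cell barcodes, while 105 and 232 passed none. Of the kept barcodes, 5 macroscopic and 117 early ones passed 2 gates, and 96 of those 117 were both Kupffer and other macrophage. Barcodes with 2 gates count in both, and no barcode sequence occurred in both libraries. Levels are given as CPM, the share of a gene in all UMIs of the summed class times 1000000, with exact Poisson 95% intervals in parentheses, and shares of barcodes carry exact Clopper-Pearson 95% intervals. All intervals cover counting error only. With 1 library per stage no test was possible, so "higher" and "lower" describe these libraries and have no replicate check.

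The gates were checked on markers that did not set them. Every one of 8 hepatocyte markers was detected in the hepatocyte gate, at a summed 31199 CPM in the macroscopic library and 30692 CPM in the early library. The early duct gate had 8 of 8 duct markers (34131 CPM), the early Kupffer gate 9 of 9 (20088 CPM) and the T cell gate 8 of 8 (3902 CPM macroscopic, 3970 CPM early). The other macrophage gate had 9 of 9 of its markers (7901 and 13498 CPM), but also 9 of 9 Kupffer markers (12467 and 11838 CPM), so its barcodes are called by the gate and are not separate from Kupffer cells by markers. In the early neutrophil gate 6 of 8 neutrophil markers were found (6169 CPM), Ly6g and Ngp were at 0, and Kupffer markers summed to 3417 CPM. The floxed genes were sparse, with 29 macroscopic and 21 early UMIs of Rb1, 2 and 0 of Rbl1, and 22 and 12 of Rbl2 in the hepatocyte gates, and counts from the 3′ end do not report a deletion elsewhere in the gene. The stages also differ in the sex of the cells: over all kept barcodes Xist was at 0 UMIs in the macroscopic library and 10149 UMIs in the early library, while 4 Y-linked genes summed to 752 macroscopic and 0 early UMIs. Stage, sex and the mice sampled cannot be told apart in any comparison of the libraries below.

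The chemokines fell to different classes. In the early library 9 of the 10 had at least 10 UMIs in their highest gate. The highest gate was Kupffer for Ccl6, Ccl24 and Cxcl13 (3 of 9, against 16.1% of 10585 genes measured the same way), other macrophage for Cxcl16 (1 of 9, against 5.66%), neutrophil for Ccl3, Ccl4 and Cxcl2 (3 of 9, against 4.87%), T cell for Ccl5 (1 of 9, against 12%) and duct for Ccl2 (1 of 9, against 40.4%). None was highest in the hepatocyte gate, where 21% of genes were. Taking both macrophage gates together, 4 of 9 were highest there, against 21.7% of genes. In the macroscopic library only the hepatocyte, other macrophage and T cell gates held at least 10 barcodes, and 8 chemokines met the minimum. Of these, Ccl3, Ccl4, Ccl6, Cxcl2 and Cxcl16 were highest in the other macrophage gate (5 of 8, against 18.2% of 8089 genes), Ccl2 and Ccl20 in the hepatocyte gate (2 of 8, against 62.8%) and Ccl5 in the T cell gate (1 of 8, against 18.9%). Read as at least 2-fold above the next gate, the macroscopic counts were 5 of 8 for other macrophage (7.36% of genes), 2 for hepatocyte (32.4%) and 1 for T cell (10.5%), and the early ones 3 of 9 for neutrophil (3%), 1 for Kupffer (Ccl24; 3.61%), 1 for T cell (3.63%), 1 for duct (13.2%), and 0 for other macrophage (1.28%) and hepatocyte (8.07%). Leaving out, for each gene, the barcode richest in it made the macroscopic macrophage count 3. Raising the minimum to 2000 UMIs per barcode left the early neutrophil gate with too few barcodes, and the early macrophage count then became 7.

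**Figure D1:**
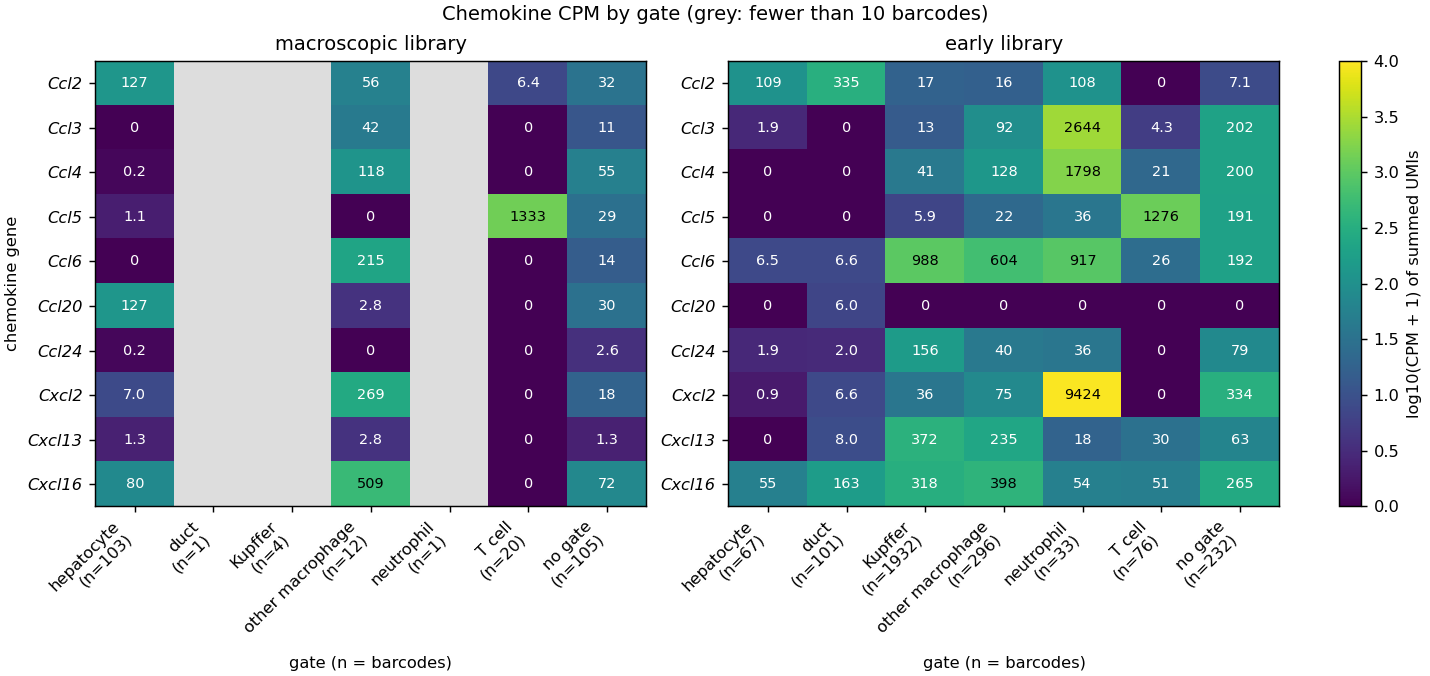
CPM of summed UMIs of each chemokine (rows) in each gate (columns, with the number of barcodes), macroscopic library on the left and early library on the right; colour is log10(CPM + 1) and grey marks gates under 10 barcodes. Cxcl2 in the early neutrophil gate (9424 CPM) is the brightest cell, and Ccl20 has colour in the macroscopic hepatocyte gate (127 CPM) with 0 in the early one.

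Ccl20 was a chemokine of the macroscopic hepatocyte gate. It had 670 UMIs there, 127 CPM (118 to 137), in 25 of 103 barcodes (24.3%, 16.4 to 33.7%), against 0 UMIs in 67 early hepatocyte barcodes. Measured against a floor of 3 counts in the early sum, that is at least 45.6-fold higher in the macroscopic library. Of 3 chemokines measured in this gate in both libraries it was the 1 at least 2-fold higher, where 8.39% of 9117 genes were, and none was at least 2-fold lower, where 19.4% were. After every barcode was thinned to 1000 UMIs the count of higher ones was 0. Elsewhere in the macroscopic library Ccl20 had 1 UMI in the other macrophage gate, 45.4-fold less than in hepatocytes (8.13 to 1798 on that 1 UMI), 0 in the T cell gate and 45 UMIs in 5 barcodes of no gate. In the whole early library only 9 UMIs were seen, all in 6 duct barcodes (5.98 CPM, 2.73 to 11.3).

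A few deep barcodes carried most of these UMIs. The richest barcode held 196 of the 670, the top 11 barcodes 96.9%, and without the richest the level was 93.6 CPM. Barcodes with Ccl20 had a median of 58446 UMIs, those without it 17791, and after thinning every barcode to 1000 UMIs the share was 3.88% (1.07 to 9.65%), against 0 of 67 early, where 3 counts would allow up to 4.48% of barcodes with a UMI. A difference in the share of barcodes with a UMI was not detectable at that equal, shallow depth. The 25 barcodes kept a hepatocyte profile, with hepatocyte markers at 25644 CPM in them and 35244 CPM in those without Ccl20, and duct markers at 6382 and 4781 CPM. Among macroscopic hepatocyte barcodes, 58 of 103 had Malat1, a nuclear RNA, under 0.05% of UMIs, against 4 of 67 early ones. Ccl20 was at 129 CPM in the 45 barcodes with more Malat1 and at 121 CPM in the 58 with less.

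Ccl20 (ENSMUSG00000026166) lies on chromosome 1 from 83116766 to 83119167 on the plus strand of GRCm38, and Cxcl2 (ENSMUSG00000058427) on chromosome 5 from 90903871 to 90905938, also on the plus strand. Both are textbook targets of NF-kB, the transcription factor that relays inflammatory signals. RefSeq promoter windows of GRCm38.p6 were at hand for 5 of the 10 genes, Ccl3, Ccl6, Ccl20, Cxcl2 and Cxcl13. The 2 sequences shown are those that held a match to the NF-kB consensus described below. The windows of Ccl3, Ccl6 and Cxcl13 held none, though Ccl3 and Ccl6 also stood many-fold above the next gate in the macroscopic library. Each line runs 5′ to 3′ from 250 to 31 bases before the RefSeq start, at chr1:83116516-83116735 (plus strand) for Ccl20 and chr5:90903649-90903868 (plus strand) for Cxcl2. Capitals mark matches on either strand to the NF-kB consensus, a degenerate motif of 10 letters.
Ccl20: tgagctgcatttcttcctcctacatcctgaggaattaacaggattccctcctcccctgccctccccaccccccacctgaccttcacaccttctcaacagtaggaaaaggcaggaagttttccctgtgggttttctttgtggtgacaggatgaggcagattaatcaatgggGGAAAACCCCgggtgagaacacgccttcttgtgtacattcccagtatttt
Cxcl2: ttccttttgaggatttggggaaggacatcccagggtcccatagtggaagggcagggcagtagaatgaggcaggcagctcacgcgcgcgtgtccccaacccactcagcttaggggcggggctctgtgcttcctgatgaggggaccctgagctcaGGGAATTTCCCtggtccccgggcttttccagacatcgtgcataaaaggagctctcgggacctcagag
The run in Ccl20 begins 80 bases before the start and that in Cxcl2 97 bases before it, the Cxcl2 run being overlapping matches of both strands. The consensus was in 2 of the 5 windows and in 4.51% of 32851 RefSeq promoter windows of 300 bases. It was chosen after simpler forms had been tried on the same windows. TGANTCA, the AP-1 motif, which is its own reverse complement, was in 0 of the 5 and in 7.81% of all. A match is a run of letters and says nothing of binding in these cells.

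Ccl2, the monocyte attractant (chromosome 11, 82035571 to 82037453, plus strand), was highest in epithelial gates of both libraries, and no gate was set for fibroblasts. In the hepatocyte gate it had 671 macroscopic UMIs, 127 CPM (118 to 137), in 25 of 103 barcodes, and 117 early UMIs, 109 CPM (89.9 to 130), in 10 of 67. The ratio was 1.17 (0.961 to 1.44), beside a median log2 ratio of -0.29 over all genes of that gate, and the hepatocyte levels of the libraries overlapped. The largest single level was in the early duct gate, 504 UMIs or 335 CPM (306 to 365), which was 3.08-fold the early hepatocyte level (2.51 to 3.80). The early neutrophil gate, on 6 UMIs, was at 108 CPM (39.6 to 235). In the macroscopic library 9 barcodes of no gate held 49 UMIs of Ccl2, 31 of them in 1. Fibroblast or stellate markers summed to 9216 CPM in those 9 and to 166 CPM in ungated barcodes without Ccl2. The part of these markers in the Ccl2 result was not tested.

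These Ccl2 levels rest on few barcodes. The duct UMIs came from 9 of 101 barcodes, 143 of them from 1, without which the duct level was 242 CPM. Fibroblast markers were at 0 in those 9 barcodes and at 196 CPM in the other duct barcodes, and duct markers were at 33003 and 34312 CPM. In macroscopic hepatocytes 1 barcode held 291 of 671 UMIs, and the log2 ratio between stages, 0.23 as reported, was -0.21 without the richest barcode of each library, -0.30 after thinning, -0.44 with equal weight per barcode and -0.84 with every gate threshold doubled, so its direction was not settled. Ccl2 was at 158 CPM in macroscopic hepatocyte barcodes with more Malat1 and 43.7 CPM in those with less, a 3.61-fold difference (2.77 to 4.78). In each set 1 barcode weighed heavily, with 291 of 610 UMIs in the first and 31 of 61 in the second. Their median depths were 107248 and 17791 UMIs. The annotation places Gm17268 on the opposite strand of Ccl2, and whether counting used strand is not stated in the labels.

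Ccl2 and Ccl20 met in the same barcodes of the macroscopic hepatocyte gate more than elsewhere in it: Ccl20 was in 56% of the 25 barcodes with Ccl2 and in 14.1% of those without. The 14 barcodes with both had a median of 129256 UMIs. After thinning, 7 barcodes had Ccl2, 4 had Ccl20 and 1 had both, too few to read a joint pattern at equal depth. All 25 Ccl20 barcodes also had Cxcl16, which was in 61 of the 103 barcodes of the gate. After thinning, 5 barcodes had Cxcl16 and 0 had both it and Ccl20.

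**Figure D2:**
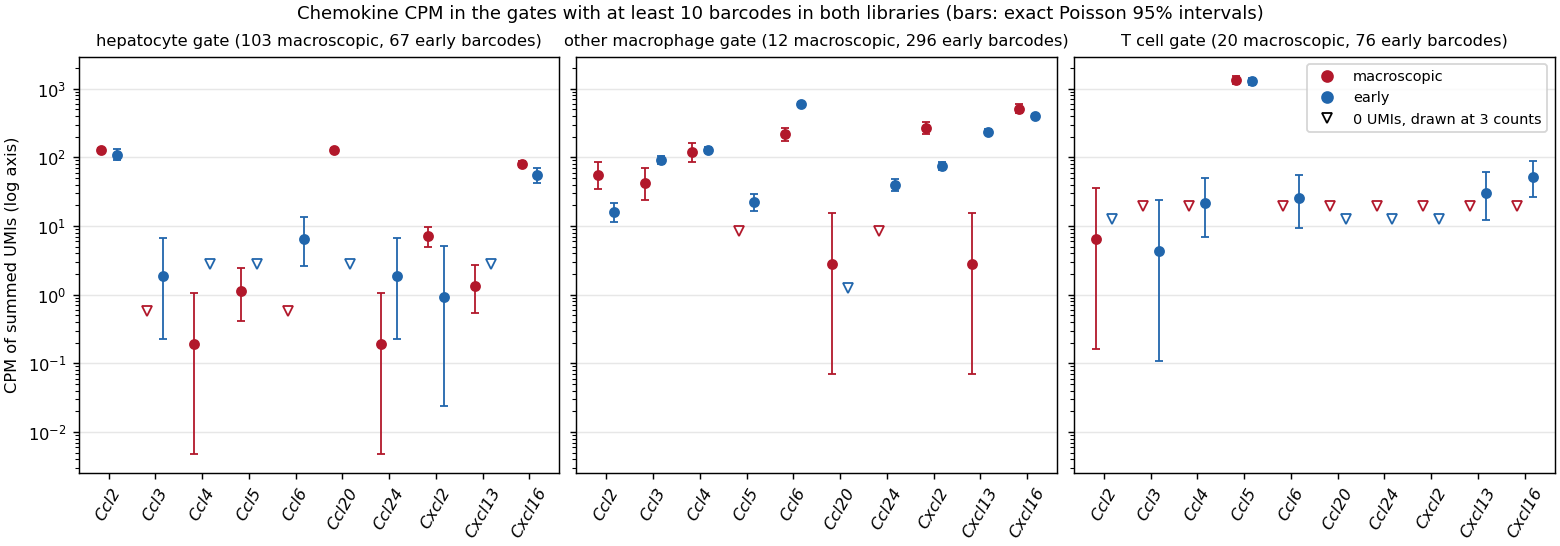
CPM of summed UMIs (log axis) of each chemokine in the hepatocyte, other macrophage and T cell gates, macroscopic (red) left of early (blue), with exact Poisson 95% intervals; open triangles are 0 UMIs, drawn at 3 counts of the sum. Ccl2 and Cxcl16 lie close together in the hepatocyte panel while Ccl20 is at 127 CPM macroscopic and 0 UMIs early, and Ccl5 lies at 1333 and 1276 CPM in the T cell panel.

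Cxcl2, the neutrophil attractant, had its highest level in the early neutrophil gate. It had 524 UMIs there, 9424 CPM (8634 to 10266), in 29 of 33 barcodes (87.9%, 71.8 to 96.6%). That was 126-fold the other macrophage level of 75.0 CPM (ratio interval 106 to 149). Of 1243 UMIs over all kept early barcodes, 331 were in barcodes of no gate, 247 in the Kupffer gate and 183 in the other macrophage gate. Thinned to 1000 UMIs, 78.8% of neutrophil barcodes still had it. The thinned share was 4.05% in other macrophage barcodes, 6.03% in those of no gate and 0 of 76 in T cell barcodes. No single neutrophil barcode dominated, the richest holding 59 UMIs.

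Ccl3 and Ccl4, inflammatory ligands that attract leukocytes (Ccl3 through Ccr1), shared that gate. Ccl3 had 147 UMIs in early neutrophils, 2644 CPM (2234 to 3107), in 24 of 33 barcodes, 28.7-fold the other macrophage level of 92.2 CPM. Ccl4 had 100 UMIs, 1798 CPM (1463 to 2187), in 15 of 33, 14.1-fold the other macrophage level of 128 CPM. Cxcl2 and Ccl3 occurred together in 21 of the 33 barcodes, and Ccl3 was in 72.4% of barcodes with Cxcl2 and in 75% of the 4 without it. The neutrophil barcodes were shallow, with a median of 1538 UMIs, and the macroscopic library held 1 such barcode, so no comparison of stages was made in this gate.

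Among macrophages the 3 ligands were carried by minorities. In the early other macrophage gate Ccl3 was in 22.3% of barcodes, Ccl4 in 15.9% and Cxcl2 in 9.46%, and Ccl4 was in 43.9% of barcodes with Ccl3, against 7.83% of those without. In the early Kupffer gate 1 barcode held 137 of 247 Cxcl2 UMIs, and Cxcl2 was at 35.6 CPM with that barcode and 15.9 CPM without it. In the 12 macroscopic other macrophage barcodes Cxcl2 had 96 UMIs, 269 CPM, of which 91 came from 1 barcode, and Ccl4 had 42 UMIs, 118 CPM, of which 32 came from 1. Ccl3 had 15 UMIs, 42.0 CPM, in 2 barcodes. Against hepatocytes of the same library, which had 1 UMI of Ccl4 and 0 of Ccl3, Ccl3 was at least 73.7-fold higher.

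Between stages the other macrophage gate gave Cxcl2 at 269 CPM macroscopic and 75.0 CPM early, a ratio of 3.58 (2.77 to 4.61). Without the richest barcode of each library the log2 ratio was -2.00, against 1.84 with all barcodes, so its direction rests on 1 macroscopic barcode. Ccl2 was at 56.0 CPM (20 UMIs, 14 of them in 1 barcode) and 16.0 CPM, a ratio of 3.50 (1.93 to 6.15). Cxcl2 and Ccl2 were the 2 of 9 measured chemokines at least 2-fold higher in the macroscopic gate, against 15.2% of 8211 genes, and without the richest barcodes the count was 0. Ccl3 was 2.20-fold lower in the macroscopic gate (1.30 to 3.99), and Ccl4 had a ratio of 0.919 (0.649 to 1.27). Without the richest barcode of each library their log2 ratios were -2.39 and -1.55. After thinning the log2 ratio of Cxcl2 was 0.17, with the gene left in only 1 macroscopic barcode.

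Ccl6, a ligand of Ccr1 known from mouse, was seen in most macrophage barcodes of the early library. In the early Kupffer gate it had 6863 UMIs, 988 CPM (965 to 1012), in 78.2% of 1932 barcodes (76.3 to 80.0%). The level was 604 CPM in the other macrophage gate (70.6% of barcodes) and 917 CPM in the neutrophil gate (42.4%), and the Kupffer to neutrophil ratio of 1.08 (0.818 to 1.45) did not separate those gates. T cell barcodes, of like depth (medians of 2557 UMIs for Kupffer and 2678 for T cell), had it in 2.63%, and hepatocytes and duct barcodes were at 6.51 and 6.64 CPM. After thinning the shares were 50.7% for Kupffer, 34.5% for other macrophage and 1.32% for T cell barcodes. A transcript named E230016K23Rik overlaps Ccl6 on the opposite strand.

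**Figure D3:**
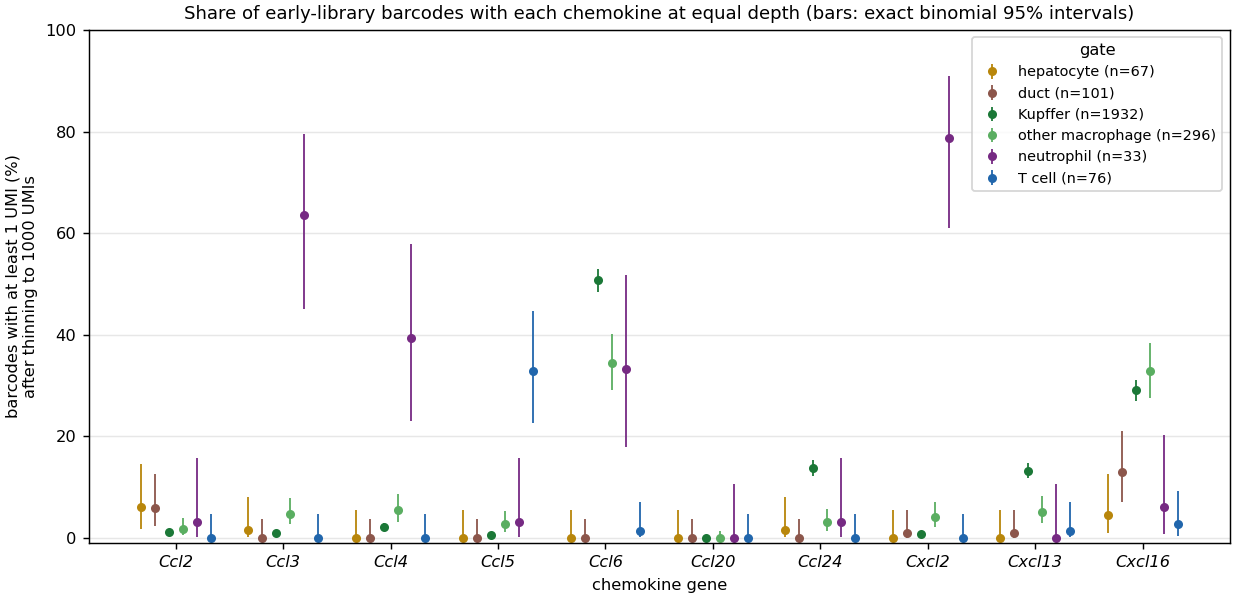
Share of early barcodes with at least 1 UMI of each chemokine after thinning every barcode to 1000 UMIs (%, points) with exact binomial 95% intervals, by gate. Cxcl2, Ccl3 and Ccl4 stand high in the neutrophil gate (78.8% for Cxcl2), Ccl5 in the T cell gate, and Ccl6 is in 50.7% of Kupffer barcodes.

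Ccl24, or eotaxin-2, an eosinophil attractant through Ccr3, followed the Kupffer gate. It had 1081 early UMIs there, 156 CPM (147 to 165), in 33.7% of barcodes, and was 3.91-fold the other macrophage level of 39.8 CPM (3.18 to 4.87). In barcodes that passed the Kupffer gate alone of these 2 it was at 165 CPM, against 16.5 CPM in those that passed the other macrophage gate alone, a 9.97-fold difference (6.81 to 15.2). T cell barcodes had it in 0 of 76, where 3 counts would allow up to 3.95% of barcodes with a UMI. Its UMIs were spread out, the richest barcode holding 14. Kupffer barcodes with Fabp7 alone were at 151 CPM and those with Cd207 alone at 161 CPM. Those with both genes were at 169 CPM (155 to 184) and those with neither at 119 CPM (96.8 to 144). After thinning the shares with Ccl24 were 13.2%, 15.7%, 14.5% and 12.6% in that order.

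Cxcl13, which guides B cells into follicles, was also highest in the Kupffer gate. It had 2587 early UMIs, 372 CPM (358 to 387), in 26.5% of barcodes, against 235 CPM in the other macrophage gate. Of the 573 UMIs in the other macrophage gate, 567 lay in the 96 barcodes that also passed the Kupffer gate, where the level was 705 CPM. Kupffer barcodes outside the other macrophage gate were at 329 CPM, against 6 UMIs or 3.67 CPM (1.35 to 7.99) in the 200 other macrophage barcodes outside the Kupffer gate, an 89.6-fold difference (41.1 to 245).

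The Cxcl13 UMIs were uneven among Kupffer barcodes. The top 20 barcodes (1%) held 52.8% of them and the richest 242 UMIs, while for Ccl6 the top 1% held 18.0% and for Cxcl16 8.06%. Kupffer barcodes with Fabp7 alone were at 582 CPM (1478 UMIs, 242 of them in 1 barcode). Those with Cd207 alone were at 184 CPM, a 3.16-fold difference (2.52 to 4.02). Barcodes with both genes were at 235 CPM (219 to 253). Those with neither were at 344 CPM (306 to 385), with 110 of 299 UMIs in 1 barcode. After thinning the shares of barcodes with Cxcl13 were 12.4%, 12.6%, 14.2% and 13.3% in that order. Monocyte markers summed to 1123 CPM in Kupffer barcodes with Cxcl13 and to 209 CPM in those without. This sum was not split by gene. It was also 489 CPM in the macroscopic and 457 CPM in the early hepatocyte gate, where its member Ly6c2 was not detected. The sum alone therefore does not mark monocytes, and the part of these markers in the result was not tested. At equal depth Cxcl13 was in 13.6% of thinned barcodes with Ccl24 and in 13.1% of those without. Cxcl13 was in 3.95% of T cell barcodes.

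In the macroscopic library these Kupffer-gate ligands were nearly out of reach, with 10 UMIs of Ccl24 and 16 of Cxcl13 over all kept barcodes. The 4 macroscopic Kupffer barcodes gave Ccl6 at 387 CPM (38 UMIs), Cxcl13 at 71.2 CPM (7 UMIs) and Ccl24 at 50.9 CPM (5 UMIs). In the other macrophage gate Ccl6 was at 215 CPM (77 UMIs, 9 of 12 barcodes) in the macroscopic library. The early level was 604 CPM, so the macroscopic one was 2.80-fold lower (2.23 to 3.57). After thinning its log2 ratio was -2.90, with Ccl6 left in only 1 of the 12 macroscopic barcodes. Ccl24 had 0 macroscopic UMIs against 97 early ones, at least 4.74-fold lower. Cxcl13 had 1 macroscopic UMI against 573 early ones, 84.0-fold lower on that 1 UMI (15.0 to 3322). Ccl5 was at 0 UMIs against 54, at least 2.64-fold lower.

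Together with Ccl3 these made 5 of 9 measured chemokines at least 2-fold lower in the macroscopic other macrophage gate, against 17.1% of genes. The median log2 ratio of the 9 was -1.14, that of Ccl3, and that of all genes -0.09. Hepatocyte markers summed to 6662 CPM in the macroscopic gate and 554 CPM in the early gate. Of the gate's barcodes, 3 of 12 macroscopic and 96 of 296 early ones also passed the Kupffer gate. With 12 barcodes the macroscopic share is only loosely known. In barcodes of both gates Cxcl13 had 1 macroscopic and 567 early UMIs. Outside the Kupffer gate it had 0 macroscopic and 6 early UMIs (3.67 CPM). The part of the hepatocyte markers and of the Kupffer overlap in the result was not tested. With every barcode thinned to 1000 UMIs the count was 2 (Ccl6 and Cxcl16). These were then left in only 1 and 2 of the 12 macroscopic barcodes.

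Cxcl16 had UMIs in every gate of the early library, but the neutrophil gate had only 3 (54.0 CPM), which equals the floor. In the T cell gate Cxcl16 had 12, in 4 of 76 barcodes, and its lowest level, 51.2 CPM (32.3 without the richest barcode). In the other macrophage gate it had 182 macroscopic UMIs, 509 CPM (438 to 589), in 11 of 12 barcodes, and 971 early UMIs, 398 CPM (373 to 424), in 84.1% of 296. The early other macrophage level was 1.25-fold the Kupffer level of 318 CPM (1.16 to 1.35), and 57.9% of Kupffer barcodes had it. Duct barcodes were at 163 CPM (66.3%). Hepatocytes were at 79.5 CPM (72.1 to 87.5; 61 of 103 barcodes) in the macroscopic library and 54.8 CPM (41.7 to 70.7; 29 of 67) in the early library. The macroscopic other macrophage level was 6.40-fold that of hepatocytes (5.35 to 7.64).

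The hepatocyte ratio of Cxcl16 between stages was 1.45 (1.10 to 1.94), or 0.54 on the log2 scale, and with equal weight for each barcode it was -0.18. The other macrophage ratio was 1.28 (1.09 to 1.50), or 0.36 on the log2 scale. After thinning it was -1.44 on that scale, with Cxcl16 left in only 2 of 12 macroscopic barcodes. In the T cell gate Cxcl16 had 0 macroscopic UMIs against 12 early UMIs in 4 barcodes, at least 2.66-fold lower, the 1 of 2 measured chemokines past that fold, against 15.3% of 5118 genes. With barcodes that passed exactly 1 gate, with equal weight per barcode, without the richest barcode or after thinning, it no longer passed. Zmynd15 overlaps Cxcl16 on the opposite strand.

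Ccl5, a ligand stored by cytotoxic lymphocytes, was the member highest in the T cell gate in both libraries. It had 208 macroscopic UMIs, 1333 CPM (1158 to 1527), in 6 of 20 barcodes, and 299 early UMIs, 1276 CPM (1136 to 1430), in 30 of 76. The ratio was 1.04 (0.871 to 1.25), and the levels overlapped. Without the richest barcode they were 891 and 955 CPM. The next gate in the early library, neutrophil, had 2 UMIs, a ratio of 35.5 (9.74 to 294), and macroscopic hepatocytes had 6 UMIs.

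Within the T cell gate Ccl5 lay with Nkg7, a cytotoxic granule gene. T cell barcodes with Nkg7 were at 3777 CPM (7 barcodes) in the macroscopic library, and the 13 without it had 0 UMIs, at least 127-fold lower. Early barcodes with Nkg7 were at 1602 CPM (55 barcodes) and those without at 152 CPM (21 barcodes), a 10.5-fold difference (5.27 to 24.6). Macroscopic barcodes with Cd8a or Cd8b1 were at 3746 CPM (6 barcodes), while the 5 with Cd4 alone had 0 UMIs. In the early library 6 barcodes had Cd8a or Cd8b1, and 22 UMIs of Ccl5 (1148 CPM) were found in 1 of them, while 4 of the 20 with Cd4 alone held 14 UMIs (164 CPM). Most of the 299 early UMIs therefore lay in barcodes with none of these 3 genes. Natural killer (NK) cell markers summed to 371 CPM in the early T cell gate and 57.7 CPM in the macroscopic one. The part of NK cells in the Ccl5 result was not tested.

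**Figure D4:**
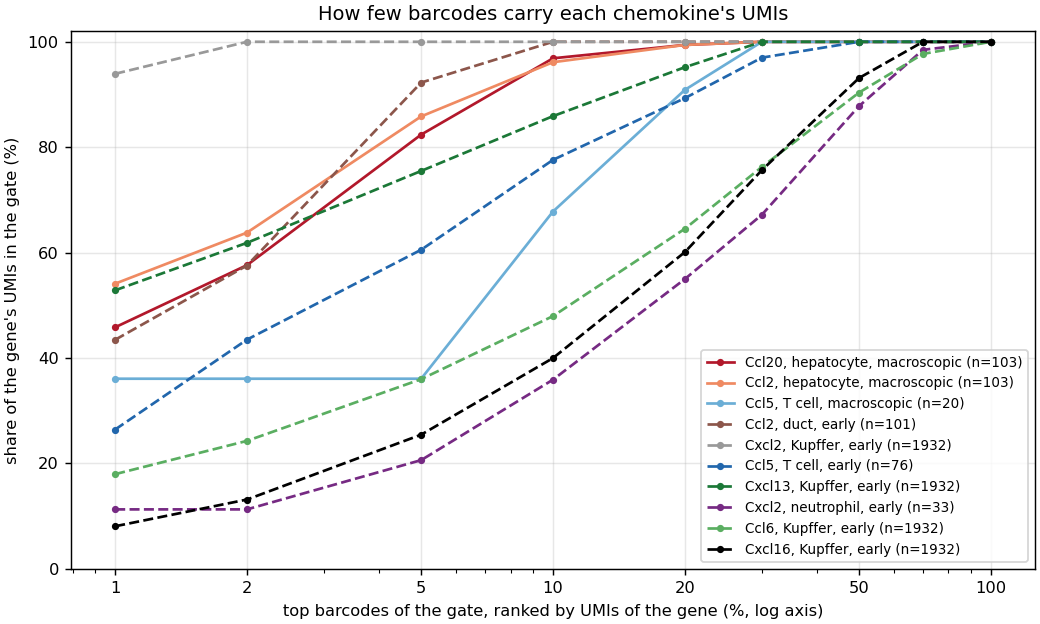
Share of a chemokine's UMIs in a gate (%, vertical) held by its richest barcodes (% of the gate's barcodes, log axis); solid lines are macroscopic, broken lines early. The top 1% of early Kupffer barcodes hold 52.8% of Cxcl13 and 18.0% of Ccl6, and 11 of 103 macroscopic hepatocyte barcodes hold 96.9% of Ccl20.

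Barcodes that passed no gate also carried chemokines. Of the 232 in the early library, 17 held 331 UMIs of Cxcl2, 20 held 200 of Ccl3, 19 held 198 of Ccl4 and 8 held 189 of Ccl5. Barcodes of no gate with Cxcl2 had Kupffer markers at 7192 CPM and monocyte markers at 2983 CPM, against 4840 and 668 CPM in those without it. Neutrophil markers were at 707 CPM with Cxcl2 and 274 CPM without, and duct markers at 283 and 5371 CPM. The monocyte sum was not split by gene, and the part of these markers in the result was not tested. In the macroscopic library 105 barcodes of no gate held 83 UMIs of Ccl4 in 6 barcodes and 44 of Ccl5 in 2. The early levels of no gate, 334 CPM for Cxcl2 and 202 CPM for Ccl3, exceeded those of the 2 early macrophage gates.

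Receptors of these ligands were followed across the same gates. Cxcr2, which binds Cxcl2, had 34 UMIs (611 CPM) in the early neutrophil gate, 45 over all kept early barcodes and 26 over the macroscopic ones. Ccr1 had 41 UMIs (737 CPM) in the early neutrophil gate and was at 58.6 CPM in early other macrophages. Ccr3 was highest in early Kupffer barcodes (91.9 CPM). Ccr2 had 180 UMIs in the macroscopic library, 149 of them in barcodes of no gate, and was at 56.6 CPM in early other macrophages. Cxcr6, the receptor of Cxcl16, was at 186 CPM in macroscopic and 623 CPM in early T cell barcodes. Ccr6 was found in 6 macroscopic and 7 early barcodes and Cxcr5 in 1 and 9. Of 23 chemokine receptors, 8 met the minimum in the macroscopic library, 4 of them highest in other macrophage (18.2% of all genes) and 4 in T cell barcodes (18.9%). In the early library 13 met it, 4 highest in neutrophil (4.87%), 5 in T cell (12%), 2 in Kupffer (16.1%), 1 in other macrophage (5.66%) and 1 in duct barcodes (40.4%). Ccrl2 (4352 CPM) and Cxcr4 (1762 CPM) were the leading ones of the early neutrophil gate, and Cxcr3 was at 252 CPM in early T cell barcodes.

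Other chemokine ligands were counted in the same way. Of 27 listed, 24 were among the features, and 8 met the minimum in the macroscopic library, 5 of them highest in hepatocytes (62.8% of all genes), 2 in other macrophages (18.2%) and 1 in T cells (18.9%). In the early library 17 met it, 3 highest in hepatocyte (21%), 4 in duct (40.4%), 3 in Kupffer (16.1%), 5 in other macrophage (5.66%), 1 in neutrophil (4.87%) and 1 in T cell barcodes (12%). Cxcl10, an interferon-induced ligand of Cxcr3, was at 343 CPM in macroscopic and 79.9 CPM in early hepatocytes, and Cxcl1, a second Cxcr2 ligand, at 170 and 26.0 CPM. Ccl9 was at 370 and 160 CPM there, and Cxcl12 at 64.9 and 66.0 CPM. In that gate 8.39% of 9117 genes were at least 2-fold higher in the macroscopic library. No check without the richest barcode was run for these other ligands. Pf4 was at 464 CPM in early Kupffer barcodes, and Cxcl14 was at 274 CPM in macroscopic and 191 CPM in early other macrophages. Cxcl9 was at 89.8 CPM in early other macrophages.

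Genes of the NF-kB pathway and early cytokines were mostly highest in the early neutrophil gate. All 14 listed were among the features and 10 met the minimum in each library. In the macroscopic library 3 were highest in hepatocyte (62.8% of all genes), 2 in other macrophage (18.2%) and 5 in T cell barcodes (18.9%), and in the early library 8 were highest in neutrophil (4.87%) and 2 in Kupffer barcodes (16.1%). Il1b was at 652 CPM in macroscopic other macrophages and at 16024 CPM in early neutrophils, and Nfkbia, the NF-kB inhibitor that NF-kB itself induces, was at 6492 CPM in early neutrophils. In the hepatocyte gate Nfkbia was at 105 CPM in the macroscopic and 167 CPM in the early library, Icam1 at 65.8 and 77.1 CPM, and Sod2 at 189 and 239 CPM.

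The genes most like each chemokine were found over 8 class sums of both libraries, by Pearson correlation of log2(CPM + 1) among 10799 genes. The sums used barcodes that passed exactly 1 gate. The macroscopic other macrophage gate, with 8 such barcodes, was not among them. The sums of a library share their mice, chemistry and depth, so these are descriptions. Ccl2 was closest to Maged1 (r = 0.988), Ccl20 to Arc (0.99997), Ccl5 to Cxcr3 (0.983), Ccl6 to March1 (0.998), Ccl24 to Spic (0.99998), and Cxcl13 to Cd163 (0.984). With 670 UMIs of Ccl20 in the macroscopic hepatocyte gate and 9 in the early duct gate, its r rests mainly on 1 sum. Ccl3 was closest to Taldo1 (0.991), Ccl4 to Plek (0.985), Cxcl2 to Tnfrsf1a (0.977) and Cxcl16 to Edem2 (0.952).

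Of the 10 chemokine genes, 6 lie on chromosome 11, 3 on chromosome 5 and 1 on chromosome 1 (GRCm38, GENCODE M21). Ccl5, Ccl6, Ccl3 and Ccl4 lie within 138.91 kb, from 83525778 to 83664683 on chromosome 11, and in the early library Ccl5 was highest in T cell barcodes, Ccl3 and Ccl4 in neutrophil barcodes, and Ccl6 in Kupffer barcodes, where its level was not separated from that of the neutrophil gate. Cxcl2 and Cxcl13 share chromosome 5 with Ccl24 and were highest in the neutrophil and Kupffer gates. No annotated gene overlaps any of the 10 on its own strand.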

How the data were processed

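The authors deposited, for 10x 3′ v3 libraries, a matrix of raw UMI counts from Cell Ranger 3.0.2 (per the file headers). Seurat 2.3.0 and mm10 also appear in the submitters' processing notes, without roles. Barcode filter, strand setting and annotation: not given in the sources used here. Barcodes with at least 1000 UMIs were kept and gated on raw UMIs. UMIs were summed per gate and library and divided by all UMIs of the sum (CPM), with Python 3.11.15, numpy 2.4.6, scipy 1.17.1 and pandas 2.3.3. Ratios carry exact conditional binomial 95% intervals, checked on simulated data. A ratio against 0 UMIs uses 3 counts over the sum. A gene entered the ranking of gates with at least 10 UMIs in its highest gate (gates of at least 10 barcodes), and a stage ratio with at least 10 UMIs over both sums and 10 CPM in 1. Thinning drew 1000 UMIs per barcode and left out no kept barcode. No doublet caller was run. Barcodes that passed several gates were counted, and left out in 1 alternative. The 10 genes, gates and lists were chosen with earlier results of these data known. From the 3 other lists, genes with at least 50 UMIs in a gate, at most 8 per list by CPM, and the receptors of the 10 could be named. 1 of these receptors is not reported here. Alternatives changed the minimum, mitochondrial limit, gates, weighting, richest barcode, Malat1 filter, scaling and depth. With 1 library per stage there was no test.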

Additional observations from a re-analysis of the deposited data

Results flagged for a closer look

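Cxcl16 had log2 ratios of opposite sign between stages in different gates. Its log2 ratio, macroscopic over early, was 0.536 in the hepatocyte gate and 0.355 in the other macrophage gate, and -1.41 in the T cell gate, where the macroscopic count was 0 and the value is a bound. The difference between gates was not tested. Under other settings the hepatocyte value was -0.18 with equal weight per barcode. The other macrophage value was -1.44 after thinning, which left Cxcl16 in only 2 of 12 macroscopic barcodes. Under 4 settings the T cell gate gave no ratio past the 2-fold limit.

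Early barcodes under 1000 UMIs, which entered only the alternative with a lower minimum, also held chemokine UMIs above the 3 counts that a count of 0 allows. They numbered 601, of which 434 passed the Kupffer gate and 8 the neutrophil gate. They held 214 UMIs of Ccl6, 158 of Cxcl16, 68 of Cxcl13, 57 of Ccl4, 54 of Cxcl2, 46 of Ccl24 and 17 of Ccl3.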

How the results depend on the processing

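No paired analysis was possible because each stage has 1 library. Of 71 counts of chemokines recomputed under other settings, 60 stayed within 1.5 times the reported count. Among 860 CPM values 701 stayed within the counting interval and 159 did not, 45 of them after thinning and 38 without the richest barcode. Of 101 log2 ratios 83 stayed within the counting interval and 18 did not. The count highest in a macrophage gate became 7 in the early library at a minimum of 2000 UMIs, where the neutrophil gate had under 10 barcodes. In the macroscopic library it became 3 without the richest barcode and 0 after thinning, where sums are small. After thinning, the hepatocyte count of higher genes became 0 and the other macrophage counts 0 higher and 2 lower. Without the richest barcode the other macrophage count of higher genes became 0. The T cell count of lower genes became 0 with exactly 1 gate, equal weight, no richest barcode or thinning. The sign changed in 11 of the 101. In 3 of these the reported interval left out a ratio of 1. They were Cxcl16 in hepatocytes (-0.18 with equal weight), Cxcl2 in other macrophages (-2.00 without the richest barcode) and Cxcl16 in other macrophages (-1.44 after thinning). That last value rests on 2 macroscopic barcodes in which the gene was left. In the other 8 the reported interval held 1. Ccl2 in hepatocytes was -0.84 with doubled thresholds, -0.44 with equal weight, -0.21 without the richest barcode and -0.30 after thinning. Ccl5 in T cells lay between -0.159 and -0.00395 under 4 settings. With exactly 1 gate, doubled thresholds or the Malat1 filter the macroscopic other macrophage gate had fewer than 10 barcodes and gave no value. The 12 macroscopic other macrophage barcodes and 33 shallow neutrophil barcodes limit every statement on those gates.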
